A study of Homo sapiens with 6 samples.

Results

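The genes described here are RAG1, RAG2, DNTT, CD1A, CD1B, CD1C, CD1D and CD1E, which are switched on together in immature thymocytes. They were found by exact gene name in the array files, which gave 10 probes for 8 genes out of 50586 usable probes for 36328 gene names. MOLT-4 is an established human cell line of T-cell acute lymphoblastic leukaemia, and its capped RNA was immunoprecipitated with an antibody that recognises m3G and m7G caps. The eluate was hybridised in 1 colour to Agilent expression arrays. In one group the cells carried an empty vector (mock, 3 arrays), and in the other they overexpressed NUDT16, an RNA decapping enzyme (3 arrays). The labels do not say how NUDT16 was driven, how long after transfection the cells were taken, or whether the replicates were separate transfections, so p-values measure the spread between these arrays only. The comparison asks whether these messenger RNAs gained or lost signal in the cap eluate when NUDT16 was supplied. Total RNA from before the precipitation was not analysed here, so fewer cells making a transcript, less of it per cell and less of it capped cannot be told apart.

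T cells and B cells assemble their antigen receptor genes by V(D)J recombination. RAG1 and RAG2 form the recombinase that cuts the gene segments, with the active site in RAG1, and DNTT encodes terminal deoxynucleotidyl transferase (TdT), which adds untemplated nucleotides at the joins. The CD1 genes encode relatives of HLA class I molecules that pair with beta-2 microglobulin and carry lipids instead of peptides. CD1A, CD1B, CD1C and CD1D reach the cell surface, CD1E works inside the cell in lipid loading, and CD1A is a standard marker of cortical thymocytes and of the cortical form of this leukaemia.

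Each array value comes from a single spot with one 60-base probe, so the probes are shown first. The CD1 genes are related in sequence, and these sequences show what was counted as each one. The 3 probes that lie in coding sequence are given whole, and the others by their first 30 bases, in lower case and 5′ to 3′.
CD1A A_23_P402670: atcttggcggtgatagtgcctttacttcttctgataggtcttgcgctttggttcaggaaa
CD1E A_23_P310410: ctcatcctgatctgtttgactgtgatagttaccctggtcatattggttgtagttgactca
RAG2 A_23_P64525: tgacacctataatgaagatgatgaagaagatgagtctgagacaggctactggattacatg
CD1B A_23_P351844: tctcccattcgcaataagctaccaagaagc
CD1C A_33_P3273474: caacaacctggcattcttgcaactactgat
CD1D A_33_P3235531: ccttttggaaatgcctctgcatgaatttat
DNTT A_23_P409489: tcttattgaaatgcagattgctactagaaa
RAG1 A_23_P360744: ttcaggtaccaggatgcaatggatttattt
RAG2 A_21_P0000601: tctagggattcaaagatccatctttcggtt
RAG2 A_33_P3260782: atcgggtcacctgttcaaaagtccccagga

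The longest run of bases that any pair of the 10 probes shared was 8, and the same held within the CD1 family over 10 pairs. None of 50589 other probes on the array (0) held a run of 20 bases from any of the 10. On hg19 the RAG1 probe lies on the plus strand of chromosome 11, at positions 36601124 to 36601183. The 3 RAG2 probes lie on the minus strand of the same chromosome, at 36614463 to 36614522, 36616262 to 36616321 and 36616497 to 36616556, so the nearest is 13280 bases from the RAG1 probe. The DNTT probe is at chromosome 10, positions 98098081 to 98098140. The CD1 probes lie within 170244 bases of chromosome 1. CD1D is at 158156120 to 158156179, CD1A at 158227237 to 158227296 and CD1C at 158264458 to 158264517. CD1B follows on the minus strand at 158297740 to 158297780, where the file gives 41 bases for a 60-base probe, and CD1E at 158326305 to 158326364. The array files also give a start for each probe, read here as its position in the target transcript because the files do not define it. It was 1127 for CD1B, 1214 for CD1E, 1442 for CD1A, 1799 for DNTT, 2485 for CD1C, 3686 for CD1D and 6393 for RAG1, so these probes read the transcripts far from the cap by which they were pulled down. The RAG2 probes started at 362, 367 and 1401. Of the 10 probes, 9 carried a RefSeq accession that matched the current gene table under the same symbol.

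The cap sits on the first transcribed base. RefSeq start sites (GRCh38.p14) were found for 7 of the 8 genes. The start regions of 4 genes measured in at least 5 eluates are shown with 30 bases before the start in lower case and the first 30 transcribed bases in capitals. For CD1A the more upstream of 2 annotated starts is given. The windows are chr10:96304404-96304463 for DNTT, chr1:158248306-158248365 for CD1A, chr1:158289893-158289952 for CD1C and chr1:158353864-158353923 for CD1E, all on the plus strand.
DNTT: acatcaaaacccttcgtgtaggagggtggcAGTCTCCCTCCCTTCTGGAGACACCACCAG
CD1A: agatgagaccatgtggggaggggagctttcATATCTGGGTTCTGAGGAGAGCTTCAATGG
CD1C: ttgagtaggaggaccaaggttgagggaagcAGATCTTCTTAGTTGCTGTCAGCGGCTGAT
CD1E: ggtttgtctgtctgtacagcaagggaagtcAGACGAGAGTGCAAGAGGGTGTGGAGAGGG
Each of the 4 transcripts starts with a purine, as do 78.1% of 35097 RefSeq starts. Within 300 bases around the start (250 before and 50 after), 0 of the 9 windows of these genes held TATAAA on either strand, against 11.5% of all windows. The E-box letters CANNTG, which read the same on both strands, occurred 4 times for CD1C, 3 times for DNTT and 3 times for the CD1A start shown, and 0 times for CD1E, with a median of 1 over all windows. They occurred 1 time for RAG1, RAG2 and the other CD1A start, and 1 and 0 times for the CD1D starts. These counts describe the letters in the windows only.

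Detection varied between the arrays, and 1 of them stood apart. Between 39.3% and 52.0% of 58717 spots for cell RNA were well above background on 5 arrays, and 14.6% on NUDT16 replicate 2. Its scaling value was an intensity of 224, against 2701 to 7717 on the others, so results are given with and without it. Arrays that share a replicate number, 1 of each group, sat together on a slide with its own scan. The 2 probes for NUDT16 itself were not well above background on any array and did not check the labels. A probe named for its pseudogene NUDT16P1 (A_21_P0012400), the single probe called on the array, was detected on 0 mock arrays and in all 3 libraries labelled NUDT16 (limma adjusted p 0.00155). The other NUDT16P1 probe (A_24_P626981) was detected on 0 arrays of either group, so the call holds for 1 of 2 probes of that name. Of 12 T-lineage markers, 8 were detected on all 6 arrays, among them CD3D, CD4 and PTCRA, while CD8B was not detected on any. Their summed signal was 18.6 to 20.7 times the scaling value in mock and 19.8 to 25.9 times in NUDT16 arrays. Of the 6 markers of myeloid and dendritic cells on the array, which share CD1 expression with thymocytes, 4 were not detected on any array, CD207 and CLEC9A among them, while CD14 was detected on 4 and ITGAX on 2. Their summed signal was 0.012 to 0.027 in mock and 0.014 to 0.141 in NUDT16 arrays, the highest on replicate 2 with 0 of them detected. The B-cell marker CD79A was detected on 6 arrays, while PAX5 and MS4A1 were detected on none (0); the part of such cells' RNA in the results below was not tested.

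Terminal transferase and most of the CD1 family were in the cap eluate, whereas RAG2 lay at or near background and RAG1 was detected in part of the arrays. DNTT, CD1B and CD1E were well above background on all 6 arrays, which 13% of all probes were. CD1A and CD1C were so on 5 arrays, missing only NUDT16 replicate 2. RAG1 was detected on 4 arrays and CD1D on 2. The RAG2 probes were detected on 2, 1 and 1 arrays. A probe was tested where it was well above background on all 3 arrays of a group, so 5 of the 10 probes were tested and RAG1, RAG2 and CD1D were not.

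No effect of NUDT16 was called for any tested gene. With limma and Benjamini-Hochberg adjustment over 17765 probes, 0 of the 5 probes passed an adjusted p of 0.05, against 1 of all probes tested (0.00563%). At an unadjusted p under 0.05 there were 0 of 5, against 8 of all (0.045%). For none of the 5 genes (0) did the groups separate; over all probes they did not overlap for 0.591%. None of the 5 (0) was lower in all 3 same-numbered pairs, against 27.5% of all probes, and 0 were higher in all 3, against 15.9%. With the replicate number as a block, 0 of 5 had an unadjusted p under 0.05, against 9.76% of all. The 5 differences were all below 0, as were 56.8% of all differences, and their median was -0.06, against -0.11 over all probes. That common sign depended on the scaling, since only DNTT and CD1A stayed below 0 when arrays were scaled over all spots. Below, an intensity is the scanner's processed fluorescence. A log2 signal is its log2 minus that of the 75th percentile of the 6582 probes detected on all arrays, which differs between probes for reasons other than abundance and is compared only within a probe.

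DNTT had the largest of the 5 differences, and it was within the spread between arrays. Its intensity was 1959, 589.9 and 1619 on mock replicates 1, 2 and 3, and 1013, 25.1 and 2689 on NUDT16 replicates 1, 2 and 3. Scaled, these were -1.93, -2.19 and -1.54 in mock and -2.93, -3.15 and -1.37 in NUDT16 arrays. NUDT16 replicates 1 and 2 lay below every mock array and replicate 3 above every one, so the groups overlapped. The means were -1.89 ± 0.33 (SD, n = 3) and -2.48 ± 0.97 (SD, n = 3). The difference of -0.59 (SE 0.66, limma adjusted p 0.999) corresponds to 0.662-fold, with a 95% interval from 0.246 to 1.78-fold. By same-numbered pair it was -1.0, -0.96 and 0.17, lower in 2 of 3. Blocking on the replicate number, the interval narrowed to 0.362 to 1.21-fold (limma adjusted p 0.504). It was -1.15 without NUDT16 replicate 3 and -0.26 without NUDT16 replicate 2, and -0.41 in the paired fit on replicates 1 and 3 (limma adjusted p 0.468).

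CD1A was steady on the slides of replicates 1 and 3, and its difference came from the replicate 2 slide. Its intensity was 1536, 298 and 809 in mock replicates 1 to 3 and 1424, 10.5 and 1262 in the NUDT16 replicates, where the value of 10.5 was not well above background. The log2 signals were -2.28, -3.18 and -2.54 in mock and -2.44, -4.41 and -2.46 in NUDT16 arrays. NUDT16 replicates 1 and 3 thus sat inside the mock range, and replicate 2 sat below it. On NUDT16 replicate 2 the dimmest probe that was well above background had a log2 signal of -3.52, so the value of CD1A there is below what that array could tell from background. The difference was -0.43 (SE 0.69, limma adjusted p 0.999), or 0.74-fold with a 95% interval from 0.26 to 2.11-fold. Within pairs it was -0.16, -1.23 and 0.08. Without NUDT16 replicate 2 the sign turned to 0.22, and the paired fit on replicates 1 and 3 gave -0.04.

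CD1B and CD1E, the remaining genes detected everywhere, hardly differed between the groups. The CD1B intensities were 1112, 1055 and 1320.0 in mock and 1368, 69.6 and 1862 in NUDT16 arrays. Relative to the scaling value they were -2.75, -1.36 and -1.84 in mock and -2.50, -1.68 and -1.90 in NUDT16 arrays on the log2 scale. All 3 NUDT16 values lay within the mock range. The difference was -0.05 (SE 0.62, limma adjusted p 0.999), and the 95% interval ran from 0.378 to 2.48-fold. With the replicate block it ran from 0.578 to 1.62-fold. A change to 0.5-fold or to 2-fold lay outside this blocked interval but inside the unblocked one.

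CD1E encodes the intracellular family member. Its intensities were 592, 476 and 532 in mock and 559.7, 42.5 and 703 in NUDT16 arrays. The log2 signals were -3.66, -2.50 and -3.15 in mock and -3.79, -2.39 and -3.30 in NUDT16 arrays. The NUDT16 arrays spanned the mock range and reached slightly past both of its ends. The pair differences of -0.13, 0.11 and -0.16 were the narrowest of the 5 genes. The difference of -0.06 (SE 0.64, limma adjusted p 0.999) had a 95% interval from 0.367 to 2.51-fold, and from 0.582 to 1.58-fold with the replicate block.

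CD1C, which also marks a class of dendritic cells, was well above background on 5 arrays, and its difference between the groups changed with the processing. Its intensities were 289, 37.4 and 166 in mock and 170.3, 4.01 and 294 in NUDT16 arrays. The value of 4.01 was a surrogate that the scanner software put in for a spot not above background, so the scaled value of -5.80 for that array is no measurement. The other log2 signals were -4.69, -6.18 and -4.83 in mock and -5.50 and -4.56 on NUDT16 replicates 1 and 3. The groups overlapped, and the measured pairs went in opposite directions, by -0.81 and 0.27. The fit over all arrays, which includes the surrogate, gave -0.06 (SE 0.66, limma adjusted p 0.999) with a 95% interval from 0.355 to 2.60-fold, so it is not a measured difference of 3 against 3. The value was -1.15 with quantile normalization, -0.73 from the authors' table and 0.64 with normexp background correction. It was 0.20 without NUDT16 replicate 2, and -0.27 in the paired fit on replicates 1 and 3.

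**Figure D1:**
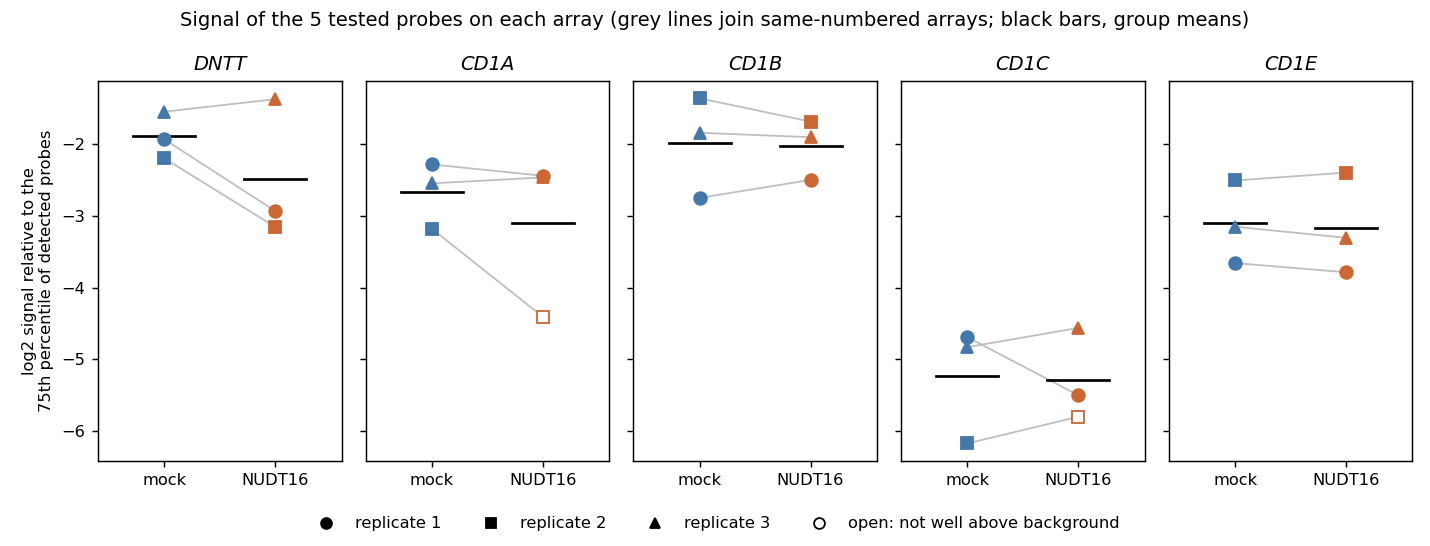
Log2 signal relative to the 75th percentile of detected probes (vertical axis) for DNTT, CD1A, CD1B, CD1C and CD1E on 3 mock (blue) and 3 NUDT16 (orange) arrays, with one symbol shape per replicate number, open symbols for spots not well above background, and black bars for group means. The groups overlap in every panel, and the open CD1A symbol at -4.41 is NUDT16 replicate 2. Heights are to be compared within a panel only.

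**Figure D2:**
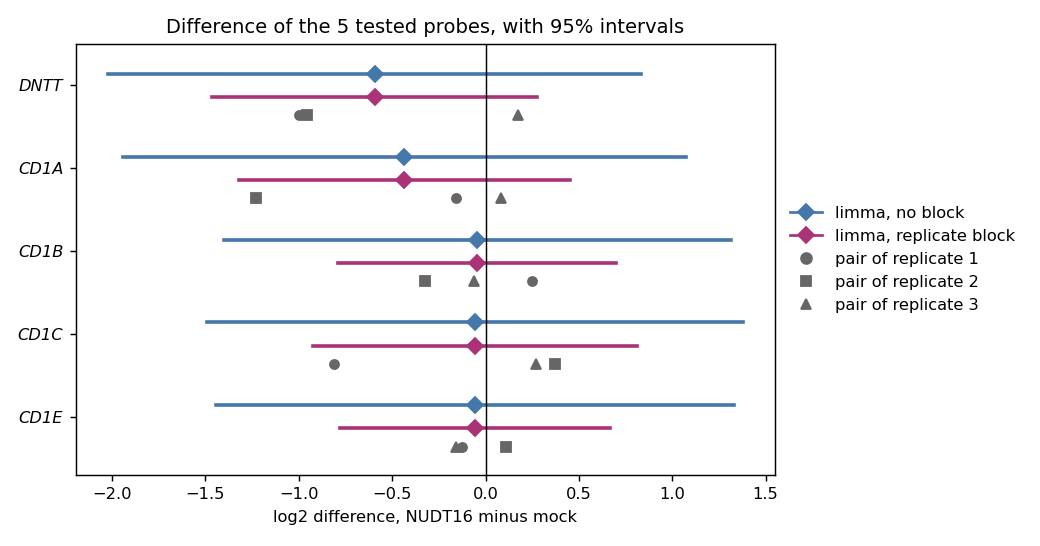
Log2 difference of NUDT16 minus mock (horizontal axis) for the 5 tested genes, with limma estimates as diamonds and 95% intervals as lines, unblocked (blue) or blocked by replicate number (purple); grey symbols are the differences within same-numbered pairs. Every interval includes 0, and DNTT has the largest difference, -0.59.

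The recombinase probes did not meet the detection filter and were not tested. The RAG1 intensities were 134, 12.9 and 58.9 in mock and 82.4, 4.64 and 110.1 in NUDT16 arrays. RAG1 was well above background on both arrays of replicates 1 and 3 and on neither of replicate 2. Within the measured pairs the log2 difference was -0.75 for replicate 1 and 0.35 for replicate 3, so the pairs went in opposite directions. The mean difference over all arrays is not given, because it would rest on the background values of replicate 2.

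The 3 RAG2 probes did not read together. The coding probe A_23_P64525 had 7.58, 12.9 and 24.9 in mock and 8.78, 4.43 and 35.97 in NUDT16 arrays. Only the spot of NUDT16 replicate 3 exceeded background clearly. A_33_P3260782 had 17.6, 9.44 and 32.8 in mock and 8.59, 4.14 and 35.5 in NUDT16 arrays, and both arrays of replicate 3 detected it. A_21_P0000601, designed to another transcript variant, had 43.4, 11.4 and 10.72 in mock and 9.45, 3.94 and 6.10 in NUDT16 arrays, and only mock replicate 1 detected it. No array had all of them above background, so neither a level nor a fold is given for RAG2.

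CD1D, the member that presents lipids to invariant natural killer T cells, had 27.3, 15.0 and 62.1 in mock and 20.1, 4.17 and 53.2 in NUDT16 arrays. Both arrays of replicate 3 detected it and no other did. The replicate 3 pair differed by -0.78 on the log2 scale, with no test.

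**Figure D3:**
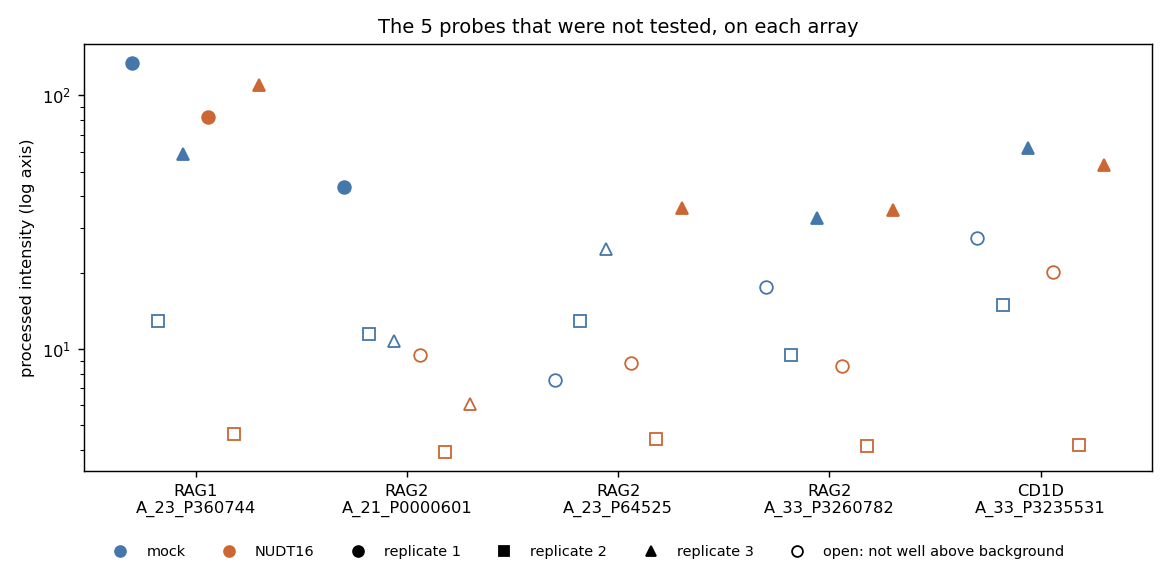
Processed intensity on a logarithmic vertical axis for the RAG1, RAG2 and CD1D probes on each array, mock in blue and NUDT16 in orange, with filled symbols for spots well above background. RAG1 has 4 filled symbols and CD1D 2, both CD1D ones from replicate 3, and NUDT16 replicate 2 is the lowest array for each probe.

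For 4 of the 5 tested genes the replicate number ordered the arrays in the same way in both groups. The share of all tested probes ordered alike was not counted. Over all of them, the deviations of same-numbered arrays correlated at 0.84, 0.39 and 0.77. CD1B and CD1E were lowest on replicate 1 and highest on replicate 2, in mock and in NUDT16 arrays alike. CD1A was lowest on replicate 2 in both groups, as was CD1C, and neither was well above background on NUDT16 replicate 2. DNTT was lowest on replicate 2 and highest on replicate 3 in both. By slide mean, CD1B and CD1E lay below their own average over the slides on replicate 1 and above it on replicate 2. CD1A and CD1C did the reverse. On replicate 3 CD1A, CD1B and CD1C were all above their average, by 0.38, 0.13 and 0.56, while CD1E was at -0.09. The slide means spanned 1.10 (CD1B) to 1.43 (CD1A) on the log2 scale, against group differences of 0.05 to 0.59 in size. Over all tested probes the median span was 1.39 and the median size of the group difference 0.41, so a wide span between slides was common on these arrays. An F test of the slide beside the group, chosen after the data were seen, gave limma adjusted p values from 0.0689 (CD1A) to 0.114 (DNTT). It called 0 of the 5 genes, against 35.7% of all probes, and 2 of the 5 had an unadjusted p under 0.05, against 53.6%. Replicate number, slide and scan cannot be told apart.

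**Figure D4:**
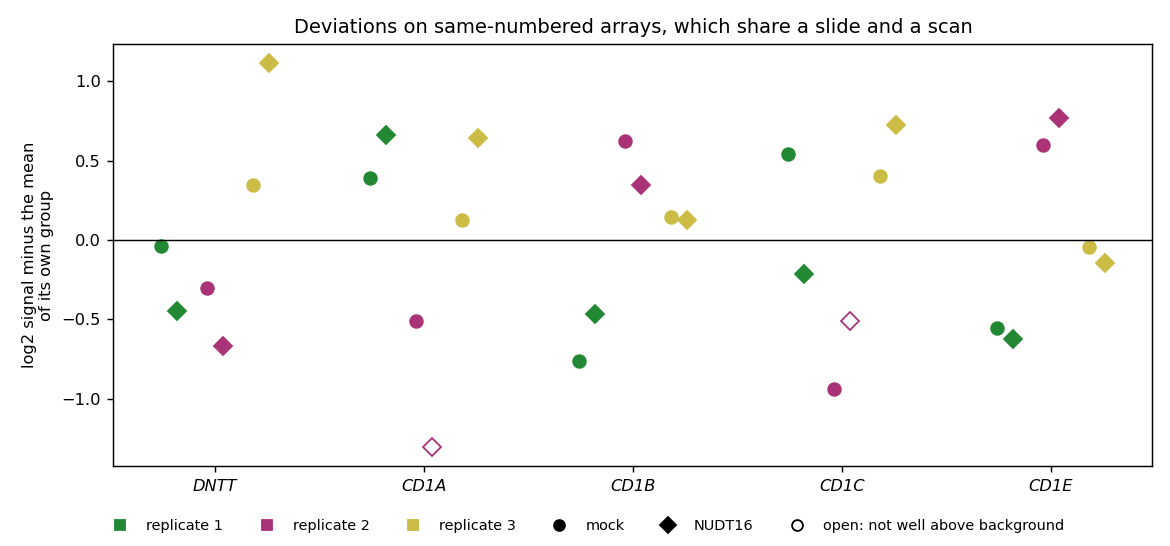
Log2 signal minus the mean of its own group (vertical axis) for the 5 tested genes, coloured by replicate number, with circles for mock and diamonds for NUDT16 arrays and open symbols for spots not well above background. The purple symbols of replicate 2 lie below 0 for DNTT, CD1A and CD1C and above 0 for CD1B and CD1E, in both groups.

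The base composition of probes moved with the group difference across the array. Over 17765 probes the Spearman correlation of GC content with the difference was 0.41, as a description over probes that share the arrays. The DNTT and CD1C probes had 35% GC, CD1B 40.0%, CD1E 41.7% and CD1A 45.0%, against a median of 43.3% over the probes tested. The part of GC content in the differences of these genes was not tested.

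The genes whose signal over the 6 arrays was most like that of each tested gene are given as a description. Among probes detected on all arrays, those most like DNTT were ANXA7, CCT4 and WAC (Pearson r of 0.996, 0.995 and 0.995). CD1A was followed most closely by XBP1, ZNF395 and CBX6 (r of 0.996, 0.992 and 0.991). CD1B was followed by XLOC_001776, GNG10 and XLOC_006263 (r of 0.982, 0.981 and 0.979). CD1C was followed by SCAF11, EML4 and the unnamed probe A_24_P409402 (r of 0.998, 0.998 and 0.997), with its surrogate value among the 6 points. CD1E was followed by the small nucleolar RNA SNORD74, the Cajal body RNA SCARNA8 and the histone gene HIST1H4A (r of 0.999, 0.997 and 0.996). With 6 points on 3 slides such values are common, as r exceeded 0.9 for between 1.93% (CD1C) and 5.3% (CD1E) of the candidates.

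Most partners of these genes in recombination had lower values in NUDT16 arrays, with 0 called. After RAG cutting, the ends are joined by Ku (XRCC5 and XRCC6), PRKDC, DCLRE1C (Artemis) and the XRCC4 ligase complex. Of 13 such genes 10 were tested, and 8 were lower and 2 higher, while 56.8% of all probes tested were below 0. The median difference was -0.61, against -0.11 over all probes tested. The median was -0.61, -1.03 and -0.19 in the 3 pairs, so the size was greatest on the replicate 2 slide. Of the 10 tested, 8 were lower in 3 of 3 pairs, against 27.5% of all probes tested. The other 2 were higher in 3 of 3, against 15.9%. The list had more genes below 0 than above under every scaling tried. Its median ran from -1.08 (without mock replicate 1) to -0.09 (without NUDT16 replicate 1) when one array was left out. The 7 genes kept when detection on all 6 arrays was required gave -0.54, with 5 lower and 2 higher. With the replicate block 2 of the 10 had an unadjusted p under 0.05, XRCC5 (0.0259) and C9orf142 (0.0373), against 9.76% of all probes, and each had a limma adjusted p of 0.467. XRCC5, one chain of Ku, averaged -0.50 ± 0.63 (SD, n = 3) without NUDT16 and -1.52 ± 1.23 (SD, n = 3) with it (difference -1.01, SE 0.73, limma adjusted p 0.999). XRCC4 differed by -1.02 (SE 0.80) and C9orf142, the end-joining factor PAXX, by 0.88 (SE 0.76), both with a limma adjusted p of 0.999. XRCC4, PRKDC and DCLRE1C, all among the lower genes, were not well above background on NUDT16 replicate 2. The pair differences of XRCC4 were -0.02, -2.53 and -0.51, and the paired fit on replicates 1 and 3 gave it -0.26. HMGB1, the brightest of the list and a DNA-bending cofactor of RAG, differed by -0.65 (SE 0.86, limma adjusted p 0.999).

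Of the transcription factors of the thymocyte programme, none was called (0). Of 14, 12 were tested, 10 lower and 2 higher, while 56.8% of all probes tested were below 0. The median of the list was -0.37, against -0.11 over all probes tested. ETS1, SATB1 and TCF12 had the smallest p values, with differences of -1.18 (SE 0.80), -1.06 (SE 0.83) and -0.98 (SE 0.87), but NUDT16 replicate 2 did not detect any of the 3. Their pair differences there were -2.14, -2.31 and -2.35, and the paired fit on replicates 1 and 3 gave -0.70, -0.44 and -0.29. GATA3, also lower, and ID3, which was higher, were not well above background on NUDT16 replicate 2 either. MYB, the brightest, differed by -0.19 (SE 0.63). Every limma adjusted p was 0.999 without the replicate block. With it, 1 of the 12, ETS1, had a limma unadjusted p under 0.05 (0.023, adjusted p 0.467), against 9.76% of all probes. In the 3 pairs the median of the list was -0.46, -0.80 and 0.14, so the third pair went the other way. Leaving out one array gave medians from -0.87 (without NUDT16 replicate 3) to 0.05 (without NUDT16 replicate 2, 7 genes higher and 5 lower). The 7 genes kept when detection on all 6 arrays was required gave -0.25, with 6 lower and 1 higher, and with normexp background correction 6 were higher and 6 lower.

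Genes for CD1 assembly and lipid loading showed no common direction. Of 15, 13 were tested, 7 higher and 6 lower, with a median of 0.03 and 0 called. That median was -0.14 with quantile normalization and 0.23 with normexp, and ran from -0.30 (without NUDT16 replicate 2) to 0.34 (without mock replicate 1) when one array was left out. CANX (calnexin) and PDIA3, chaperones of folding heavy chains, differed by -1.51 (SE 1.05) and -1.07 (SE 0.77), and AP3B1, of the adaptor that sorts CD1B to lysosomes, by -0.85 (SE 0.75), each with a limma adjusted p of 0.999. CALR (calreticulin), the brightest, differed by 0.14 (SE 0.58). With the replicate block 3 of the 13 had a limma unadjusted p under 0.05, against 9.76% of all probes. These were CANX (0.0102), PDIA3 (0.0331) and AP3M1 (0.0498), each lower and with a limma adjusted p of 0.467. In the paired fit on replicates 1 and 3, CANX was called at -1.0 (limma adjusted p 0.0328), in a fit that called 613 of all probes (3.45%), 12 of them higher and the rest lower, and that gave every probe of these lists the same SE of 0.30. AP3B1 and AP3M1 were not well above background on NUDT16 replicate 2, and that fit gave them -0.42 and -0.51. The T-lineage markers had 6 higher and 4 lower of 10 tested, with 0 called and 0 at a limma unadjusted p under 0.05 with the block. Their median was 0.25. It ran from -0.15 (without NUDT16 replicate 1) to 0.43 (without mock replicate 1) when one array was left out, turning to -0.03 without mock replicate 2, and with no scaling every list had only lower values.

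**Figure D5:**
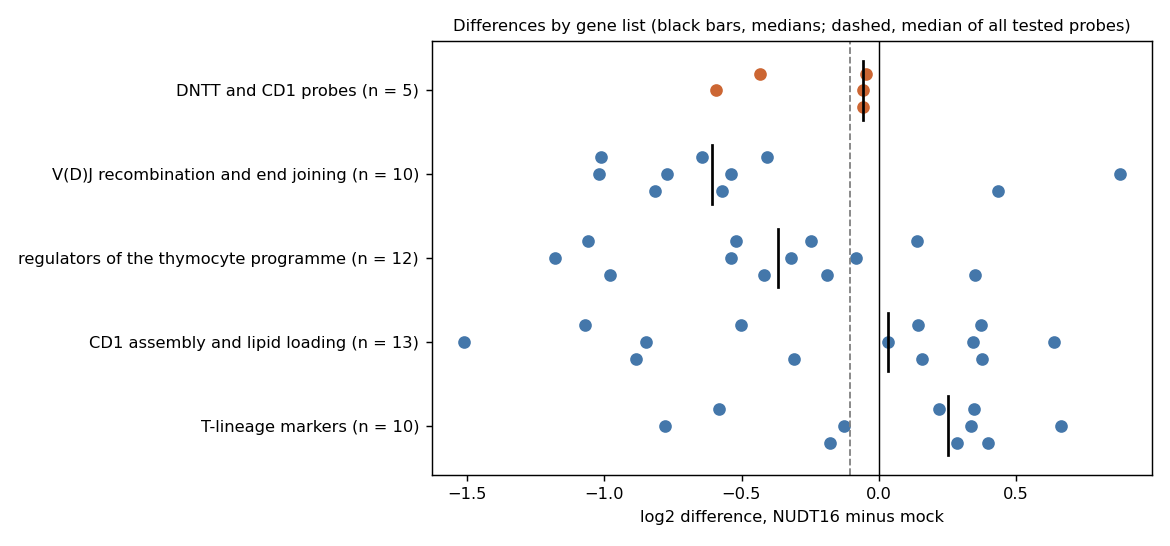
Log2 difference of NUDT16 minus mock (horizontal axis) for the 5 tested DNTT and CD1 probes (orange) and for one probe per gene of 4 gene lists (blue), with medians as black bars and the median of all tested probes, -0.11, as a dashed line. The recombination list has its median at -0.61 and the T-lineage markers at 0.25, and 0 of the points shown were called.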

How the data were processed

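The labels give 3 mock and 3 NUDT16 arrays. Per the file headers, the arrays (Agilent design 039494, Feature Extraction 10.7.3.1, hg19) hold fluorescence intensity; the authors' processed intensity had background subtracted and a spatial trend removed, with surrogates for spots at background and no scaling from array to array. The submitters' processing notes name Agilent Feature Extraction and limma. The authors' deposited log2 value table, whose normalization is not given in the sources used here, ranks spots as median minus background intensity does (Spearman's rho 1). Its column medians are 6.06 to 6.18.

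Control and outlier spots were left out and spots of one probe averaged. The log2 processed intensity was shifted by the 75th percentile over the 6582 probes well above background on all 6 arrays. This was done because each array detected fewer than 50% of probes. Probes well above background on 3 of 3 arrays of one group were tested, 17765 in number. The test was limma 3.58.1 in R 4.3.3 (two-sided, adjusted p under 0.05, no block). On simulated data this procedure found 0% of log2 changes of 1 or 2, 46% of changes of 4 and 76% of changes of 6. A count of 0 called therefore does not show that nothing changed. Deviations of same-numbered arrays correlated at 0.84, 0.39 and 0.77, so the numbers pair the arrays. These arrays shared a slide and a scan, and what pairs them was not tested. The number of arrays limits the precision. For each list, the 3 genes of smallest p and the brightest are named, on the brightest tested probe per gene; for each tested gene, the 3 genes of highest Pearson correlation. The genes and lists were chosen with earlier results of these data known. Current symbols are from RefSeq (GRCh38.p14). One marker gene and the sum of its list are not reported here.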

Additional observations from a re-analysis of the deposited data

How the results depend on the processing

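Over 18 alternatives, 0 of the DNTT and CD1 probes were called in any. Of 88 values for the 5 genes, 64 kept their direction and 24 reversed, and none passed the threshold (0). The median difference over all probes, -0.11, became -0.02 (all spots), -0.05 (median), -0.26 (quantile), -1.10 (no scaling), 0.47 (normexp, offset 50) and -0.21 (authors' table). Relative to it, DNTT lay between -0.60 and -0.15 and CD1A between -0.33 and -0.14 in these fits, and CD1B, CD1C and CD1E took both signs. Of the reversed values 11 came from leaving out one array, within the ranges given, and 13 from other settings. The 13 were, for CD1A, 0.19 with normexp. For CD1B they were 0.043 (all spots), 0.011 (median), 0.076 (quantile), 0.034 (normexp), 0.023 (authors' table) and 0.095 (replicate block, replicates 1 and 3 only). For CD1C they were 0.032 (all spots) and 0.64 (normexp), and for CD1E 0.031 (all spots), 0.093 (quantile), 0.25 (normexp) and 0.18 (authors' table). The cause was not tested. Leaving out one array gave -0.77 to 0.22 for CD1A, -0.43 to 0.27 for CD1B, -0.53 to 0.21 for CD1C, -0.44 to 0.25 for CD1E and -1.15 to -0.26 for DNTT. The probe called over the whole array was lost (0 called) without scaling, with normexp, without the filter on dim probes, with detection required on all 6 arrays, with the authors' table and without mock replicate 2; leaving out one array gave 0 to 1. At an unadjusted p under 0.05 limma had 1, 1, 160, 2, 10 and 1 probes in these 6 fits. The replicate block left the counts at 1 over the array and 0 for these genes. On replicates 1 and 3 only it gave 613 probes over the array and 1 among the listed genes, CANX. NUDT16 replicate 2 limits RAG1, RAG2, CD1A, CD1C and CD1D, which were not well above background there.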
